A study of Mus musculus with 6 samples.

Results

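The 42 genes described here encode proteins of the complement and coagulation systems, chosen by symbol from the 32061 genes counted in isolated mouse hepatocytes. Of these, 21 belong to complement and 21 to coagulation. Each of the 42 symbols matched a single row of the table, and all 42 had enough counts to be tested. Hepatocytes were isolated with collagenase from animals aged 10 to 12 weeks, and their RNA was sequenced. The senescent group (n = 3 libraries) came from AhCre+Mdm2fl/fl mice, which carry a conditional Mdm2 allele on both chromosomes and AhCre, a Cre recombinase that is switched on when the aryl hydrocarbon receptor binds a ligand. The healthy group (n = 3 libraries) came from AhCre- mice, for which the sources used here state no Mdm2 genotype. Both groups received such a ligand, β-naphthoflavone in corn oil, at 20 mg/kg for 48 h, so exposure to the ligand is shared by the controls, whereas Cre and loss of Mdm2 cannot be told apart.

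Complement and coagulation are proteolytic cascades of the blood plasma, and the hepatocyte is the main source of most of their circulating proteins. In complement, antibodies or sugar patterns on microbes start a chain of proteases that splits C3 and ends in a pore made of the terminal components. In coagulation, tissue factor or the contact system starts a chain that activates thrombin, which turns fibrinogen into fibrin. Dedicated inhibitors hold both cascades in check.

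Total counts were 29992707 to 32210591 in senescent and 28799392 to 33267299 in healthy libraries. Levels are CPM (normalised read counts) on library sizes scaled by TMM, a method that assumes most genes do not change. Differences are log2 fold changes, senescent minus healthy, ± SE. A gene was called at an adjusted p under 0.05 in edgeR's quasi-likelihood test, Benjamini-Hochberg adjusted over 12949 genes. Nothing states that the libraries come from separate animals, and a p-value then covers only the spread among these 6 samples, which may be technical. As a check of the labels, Mdm2 averaged 21.2 ± 1.95 CPM in the healthy and 476 ± 21.7 CPM in the senescent group (SD, n = 3 each). Cdkn1a, the p21 gene and a textbook p53 target, had 35.6 ± 17.0 and 717 ± 60.0 CPM. The Mdm2 count covers the whole gene and does not check the deleted part. All 12 hepatocyte markers were detected, with summed levels of 141679 to 162091 CPM in the healthy and 81821 to 94660 CPM in the senescent group, and 10 of them fell. Macrophage markers, 16 genes of which 3 rose, summed to 104 to 279 CPM in the healthy and 257 to 516 CPM in the senescent group. Stellate cell markers, 11 tested genes of which 6 rose, summed to 14.1 to 25.9 and 40.7 to 58.0 CPM, and endothelial markers, 13 genes of which 2 rose, to 143 to 196 and 161 to 211 CPM. Of the tested markers of cholangiocytes 2 of 5 rose and 1 fell, of neutrophils 2 of 2 rose, and of lymphocytes (1), platelets (2) and red cells (5) none was called. The neutrophil list held 6 genes, of which only S100a8 and S100a9 were tested, with 13 and 18 counts in the healthy libraries together. Krt19, a risen cholangiocyte marker, had 6 there. These genes passed the expression filter only through their senescent values, so their rises say little about the lists. With total library size 14 macrophage, 7 stellate cell and 7 endothelial markers rose and 7 hepatocyte markers fell. The platelet markers Gp1bb and Gp6 had 0 counts in every library. Acta2, a stellate cell marker, and the platelet marker Gp9 had 0 counts in every healthy library and 3 counts each in the senescent libraries together. In such bulk samples fewer cells of a type and less RNA per cell cannot be told apart.

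Most members were lower or showed no called difference, and few were higher. Of 42 members 4 rose, 17 fell and 21 were not called (edgeR quasi-likelihood test). Among all 12949 genes 20.4% rose and 20.7% fell, 41.1% in all. Among the 1329 genes with a mean of at least 100 CPM, a level that 35 members reached, 13.3% rose and 44.4% fell. Of those 35 members 2 rose and 15 fell, so the share of falls was near that of other abundant genes. The risen genes were Masp2, C6, Pros1 and F12. The largest falls were those of Klkb1, F7 and Mbl1. The members' median log2 fold change was -0.39, against 0.01 for all genes and -0.33 for the abundant ones. Values of the 2 groups did not overlap for 26 members, 6 higher and 20 lower, against 54.0% of all genes. When libraries were scaled by their total counts alone, the median of all genes was 0.33 and that of the members -0.08. On that scale 9 members rose and 11 fell, against 37.5% and 9.92% of all genes. The 4 rises and 11 of the 17 falls were called in each of 15 alternatives tried.

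**Figure D1:**
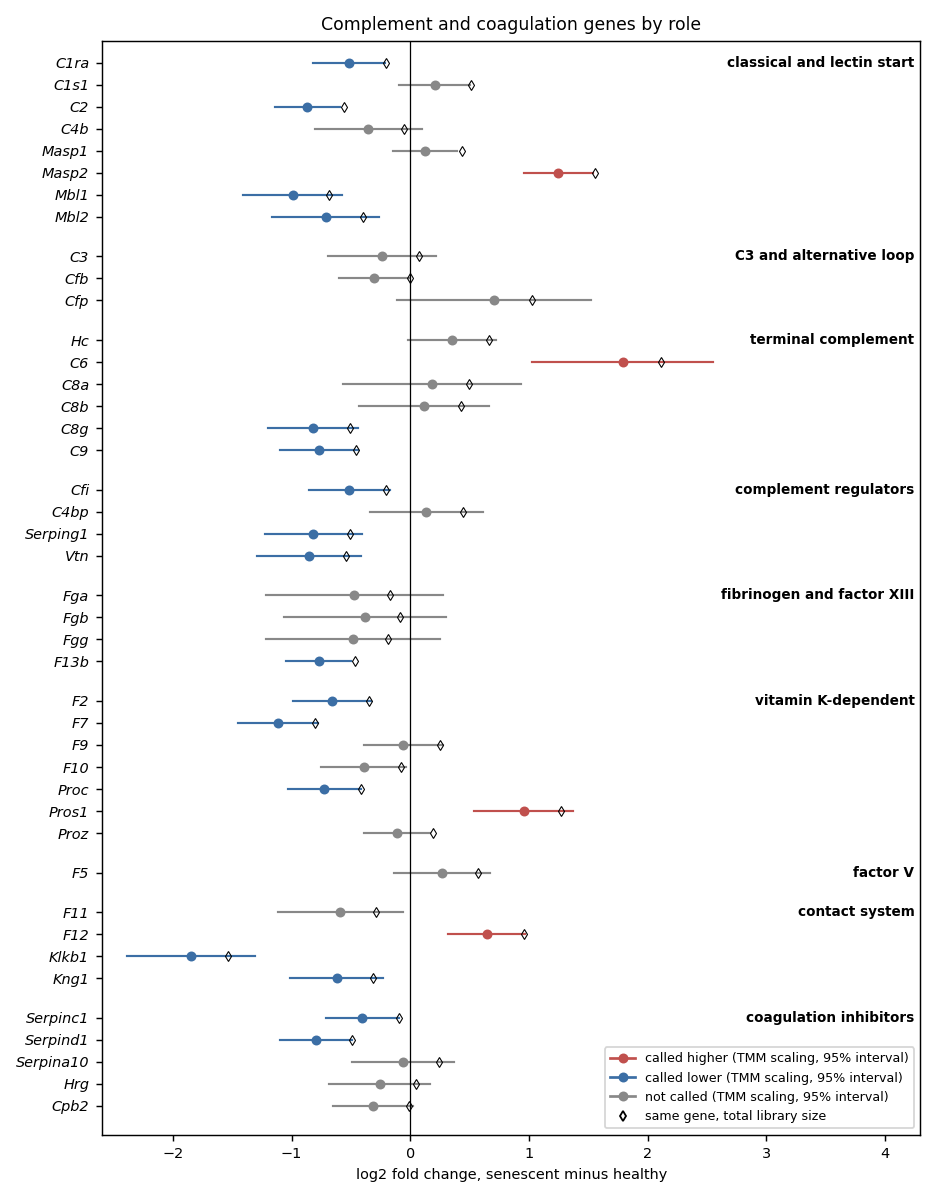
Log2 fold change (senescent minus healthy) of each of the 42 members, grouped by role; filled circles with lines give the estimate and 95% interval with TMM scaling (red called higher, blue called lower, grey not called) and open diamonds the estimate with total library size. The 4 called rises are Masp2, C6, Pros1 and F12, and diamonds lie to the right of the circles because the scaling shifts all genes.

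Complement begins with recognition proteins that carry serine proteases. The 8 genes of this step split, with 1 risen, 4 fallen and 3 not called. Masp2 encodes the lectin pathway protease that cleaves C4 and C2 (ENSMUSG00000028979; GRCm38 chromosome 4, 148602554 to 148615499). It had 226, 230.1 and 256 CPM in healthy replicates 1, 2 and 3, and 536, 618 and 538 CPM in senescent replicates 1, 2 and 3. Every senescent library was above every healthy one, and the log2 fold change was 1.25 ± 0.13 (edgeR adjusted p = 1.8e-04), the smallest p among the members. The gene overlaps Tardbp on the other strand, at 72.4 ± 5.96 CPM in the healthy and 73.8 ± 3.06 CPM in the senescent group (edgeR adjusted p = 0.85). The genes of the sugar-binding lectins that carry the MASP proteases went the other way. Mbl1 had 216, 269.5 and 257 CPM in healthy and 152, 127 and 94.6 CPM in senescent replicates, without overlap (log2 fold change -0.99 ± 0.18, edgeR adjusted p = 0.0035). Mbl2 fell by 0.71 ± 0.20 on the log2 scale (edgeR adjusted p = 0.021). Its call was lost without healthy replicate 2 (0.056), senescent replicate 2 (0.066) or senescent replicate 3 (0.094) and with total library size (0.11). Masp1, a second lectin pathway protease gene, was not called (log2 fold change 0.12, 95% interval -0.15 to 0.39), but passed with total library size (edgeR adjusted p = 0.019). Counted per kilobase of exon, Masp2 transcripts were 0.405 to 0.497 of those of Mbl1 in healthy and 1.68 to 2.698 of them in senescent libraries. That ratio is free of the scaling between libraries, but the pair was picked after its values were seen.

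C1ra and C1s1 encode the protease pair of the C1 complex, which starts the classical pathway. C1ra fell by 0.52 ± 0.13 on the log2 scale (edgeR adjusted p = 0.014). Its call was lost without senescent replicate 1 (0.053), 2 (0.053) or 3 (0.078), without healthy replicate 2 (0.0502) and with total library size (0.20). C1s1 was not called (log2 fold change 0.20 ± 0.13, edgeR adjusted p = 0.25, 0.012 with total library size). Per kilobase, the ratio of C1s1 to C1ra was 1.26, 1.22 and 1.341 in healthy and 2.01, 2.10 and 2.18 in senescent replicates 1, 2 and 3. The ratio was higher in every senescent library, with p = 0.1 in an exact two-sided permutation test, the smallest p that 3 against 3 libraries allow (0.23 adjusted over 7 ratios). Each gene has a close copy nearby, C1rb and C1s2, with which reads can be shared. C1rb had 0.345 to 0.351 of the C1ra count per kilobase in healthy and 0.326 to 0.363 in senescent libraries. C2, the protease subunit of the C3 convertase, had 38.8, 41.8 and 34.4 CPM in healthy and 22.8, 20.7 and 19.5 CPM in senescent replicates, without overlap (log2 fold change -0.87 ± 0.12, edgeR adjusted p = 8.5e-04). C4b, the gene of its partner, was not called (log2 fold change -0.36, 95% interval -0.81 to 0.09, edgeR adjusted p = 0.035 without healthy replicate 1), and its close copy C4a can share reads with it.

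C3, on which all complement pathways meet, was the most abundant member, with 7214 ± 909 TPM (counts per exonic length, scaled to the same sum in each library and without TMM) in healthy and 8024 ± 1045 TPM in senescent libraries. Its CPM were 16419, 20385 and 18397 in healthy and 17518, 16060 and 13291 in senescent replicates. The groups overlapped, and the log2 fold change was -0.24 (95% interval -0.69 to 0.22, edgeR adjusted p = 0.37), or 0.07 with total library size. Cfb, the alternative pathway protease gene, was not called either (log2 fold change -0.31 ± 0.13, edgeR adjusted p = 0.090). Cfp, which encodes properdin, the stabiliser of the alternative convertase and known from myeloid cells, had 12.4, 16.9 and 5.94 CPM in healthy and 18.8, 13.5 and 25.0 CPM in senescent replicates. Its groups overlapped, and it was not called (edgeR adjusted p = 0.15, 0.044 with total library size). Within each group Cfp had the order of the summed macrophage markers, which were 233, 279 and 104 CPM in healthy and 395, 257 and 516 CPM in senescent replicates 1, 2 and 3. The summed stellate cell markers (21.1, 25.9 and 14.1 against 42.6, 40.7 and 58.0 CPM) and endothelial markers (155, 196 and 143 against 187, 161 and 211 CPM) ranked the libraries in the same order, as did the scarce platelet markers (2.16, 2.49 and 1.38 against 2.82, 2.07 and 3.33 CPM). The cholangiocyte, lymphocyte, neutrophil and red cell markers ranked the healthy libraries in other orders. The part of these cell types in the Cfp values was not tested.

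The terminal components form the membrane attack complex. Of 6 genes 1 rose, 2 fell and 3 were not called. C6 was the least abundant member per length in the healthy libraries, at 3.34 ± 1.45 TPM. In the senescent libraries it had 15.2 ± 5.71 TPM, above C2 at 14.4 ± 1.21 TPM. It had 4.95, 8.79 and 3.96 CPM in healthy and 17.7, 14.98 and 28.5 CPM in senescent replicates. The groups did not overlap, and C6 had the largest rise of the 42 (log2 fold change 1.79 ± 0.33, edgeR adjusted p = 0.0037). Within each group its order was again that of the summed macrophage, stellate cell, endothelial and platelet markers, whose part in this result was not tested. In the healthy libraries it was not that of the cholangiocyte, lymphocyte, neutrophil or red cell markers. C9, the pore-forming subunit gene, had 393, 504.3 and 404 CPM in healthy and 279, 242 and 241 CPM in senescent replicates (log2 fold change -0.77 ± 0.14, edgeR adjusted p = 0.0037). Hc, the mouse C5 gene, was higher in every senescent library but not called (log2 fold change 0.35, 95% interval -0.02 to 0.73, edgeR adjusted p = 0.12), and it passed with total library size (0.010).

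Complement C8 is assembled from chains encoded by C8a, C8b and C8g. C8g fell, from 425, 349 and 306 CPM in healthy to 238, 192 and 183 CPM in senescent replicates, without overlap (log2 fold change -0.82 ± 0.16, edgeR adjusted p = 0.0053). C8a had 272, 773 and 551 CPM in healthy and 716, 539 and 560 CPM in senescent replicates, and C8b 185, 340.3 and 191 against 297, 247 and 231 CPM. Both overlapped between groups and spread most among the healthy libraries, with healthy replicate 1 low in each. Their log2 fold changes were 0.19 (95% interval -0.57 to 0.94) and 0.11 (-0.43 to 0.66), and without healthy replicate 1 they were -0.14 and -0.05. Per kilobase, C8a stood at 0.263, 0.910 and 0.739 of C8g in healthy and at 1.24, 1.15 and 1.25 of it in senescent replicates. The groups did not overlap (p = 0.1 in an exact two-sided permutation test, 0.23 adjusted over 7 ratios). C8b to C8g gave 0.255 to 0.572 and 0.734 to 0.755, with the same p. The ratio of C8a to C8b was 1.03 to 2.02 in healthy and 1.53 to 1.69 in senescent libraries (exact permutation p = 0.8).

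Regulators of complement limit its action on host cells. Of 4 genes 3 fell and 1 was not called. Serping1, whose product, the C1 inhibitor, also blocks kallikrein and factor XIIa, had 845, 1229 and 1093 CPM in healthy and 674, 607 and 517 CPM in senescent replicates (log2 fold change -0.82 ± 0.18, edgeR adjusted p = 0.0078). Vtn, the gene of vitronectin, which binds terminal complexes and the plasminogen activator inhibitor PAI-1, had 3360, 4560 and 3534 CPM in healthy and 2437, 2134 and 1776 CPM in senescent replicates (log2 fold change -0.85 ± 0.19, edgeR adjusted p = 0.0086). Both genes were lower in every senescent library. Cfi, which encodes the protease that inactivates C3b and C4b, fell by 0.51 ± 0.15 on the log2 scale (edgeR adjusted p = 0.025). That call was lost without any single senescent replicate (0.061, 0.089 and 0.12 without 1, 2 and 3), without healthy replicate 2 (0.082) and with total library size (0.27). C4bp, whose product is a cofactor of factor I, was not called (log2 fold change 0.14, 95% interval -0.34 to 0.61).

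**Figure D2:**
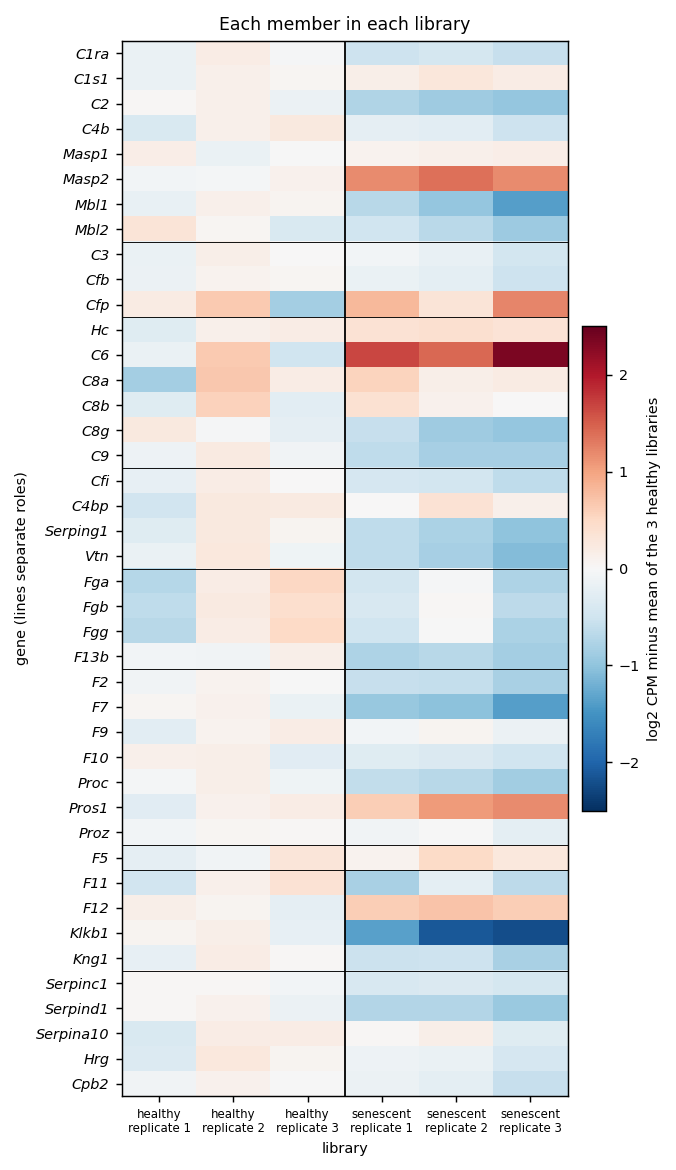
Level of each member (rows, grouped by role and separated by lines) in each of the 6 libraries (columns), as log2 CPM minus the mean of the 3 healthy libraries; red is higher and blue lower. Masp2, C6, Pros1 and F12 are red in all 3 senescent libraries and Klkb1, F7 and Mbl1 blue, while the 3 fibrinogen chains vary as much within groups as between them.

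Fibrinogen, the precursor of fibrin, is built from chains encoded by Fga, Fgb and Fgg, which lie next to each other on chromosome 3. Fga had 5415, 10050.3 and 12643 CPM in healthy and 6451, 8651 and 5167 CPM in senescent replicates. Fgb had 4946, 8962 and 10319 CPM in healthy and 5816, 7874 and 4902 CPM in senescent replicates. Fgg had 3464, 6365 and 7888 CPM in healthy and 3945, 5527 and 3211 CPM in senescent replicates. All 3 chains were lowest among the healthy libraries in replicate 1 and highest in replicate 3, and the groups overlapped. Their log2 fold changes were -0.47 ± 0.33, -0.38 ± 0.30 and -0.48 ± 0.32, none of them called (edgeR adjusted p = 0.27, 0.33 and 0.26). Without healthy replicate 1, Fga and Fgg passed (log2 fold change -0.75 and -0.76, edgeR adjusted p = 0.044 and 0.045). The within-group SD of log2 CPM was 0.52, 0.47 and 0.52, against a median of 0.19 over all tested genes. Summed levels of 23 IL-6 pathway and acute phase genes were 23539, 38609 and 35122 CPM in healthy and 27922, 27264 and 18518 CPM in senescent replicates. They were likewise lowest in healthy replicate 1 and senescent replicate 3, but highest in healthy replicate 2 and senescent replicate 1. The fibrinogen chains were instead highest in healthy replicate 3 and senescent replicate 2. The part of the acute phase genes in the fibrinogen values was not tested.

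The proportions of the chains were steadier than their levels. The ratio of Fga to Fgg per kilobase was 1.09 to 1.12 in healthy and 1.09 to 1.14 in senescent libraries, so that the highest of the 6 libraries was 1.05 times the lowest. That of Fga to Fgb was 1.39 to 1.55 and 1.33 to 1.40, and that of Fgb to Fgg 0.719 to 0.784 and 0.783 to 0.839. None of these ratios separated the groups (exact two-sided permutation p = 0.3 for Fga to Fgb, 0.4 for Fga to Fgg and 0.2 for Fgb to Fgg). F13b encodes the carrier subunit of factor XIII, the enzyme that cross-links fibrin. It fell with less spread, from 218, 216 and 253 CPM in healthy to 134, 142 and 126 CPM in senescent replicates (log2 fold change -0.77 ± 0.12, edgeR adjusted p = 0.0014).

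**Figure D3:**
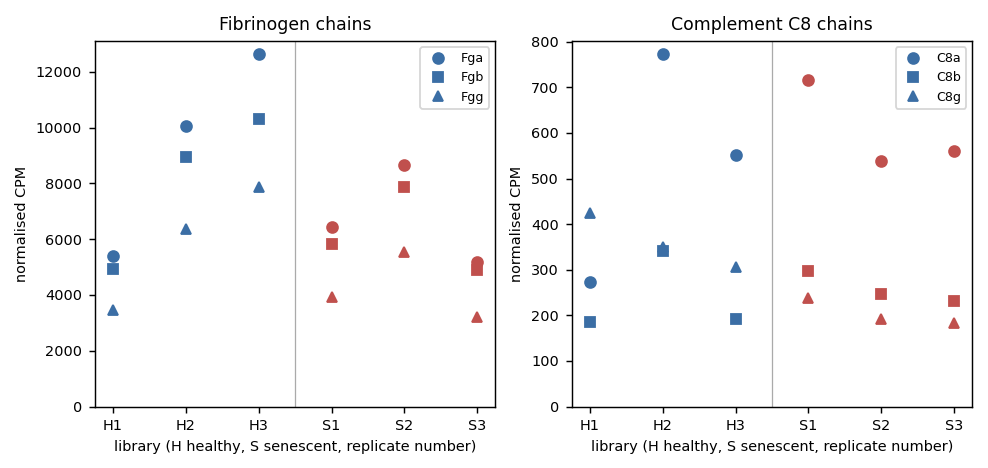
Normalised CPM of the 3 fibrinogen chains (left) and the 3 complement C8 chains (right) in each library, healthy in blue and senescent in red, 1 point per gene and library. The fibrinogen chains go up and down together from library to library, whereas C8g is below its healthy values in all 3 senescent libraries and C8a and C8b are not.

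Because the fibrinogen chains move together, the sequence before their RefSeq starts is shown (250 bases, GRCm38.p6, 5′ to 3′ on the gene's strand), beside those of Masp2 and Klkb1, the members with the smallest p in each direction. Capitals mark matches on either strand to TTGCNNAA, a site of the C/EBP factors. The windows are chr3:83025903-83026152 (+) for Fga, chr3:83049864-83050113 (-) for Fgb, chr3:83007474-83007723 (+) for Fgg, chr4:148602294-148602543 (+) for Masp2 and chr8:45294836-45295085 (-) for Klkb1.
Fga: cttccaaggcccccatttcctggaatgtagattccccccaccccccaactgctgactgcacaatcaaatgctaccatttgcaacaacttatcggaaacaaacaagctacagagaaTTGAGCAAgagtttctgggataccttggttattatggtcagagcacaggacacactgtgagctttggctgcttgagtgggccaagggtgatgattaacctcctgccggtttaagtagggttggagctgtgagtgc
Fgb: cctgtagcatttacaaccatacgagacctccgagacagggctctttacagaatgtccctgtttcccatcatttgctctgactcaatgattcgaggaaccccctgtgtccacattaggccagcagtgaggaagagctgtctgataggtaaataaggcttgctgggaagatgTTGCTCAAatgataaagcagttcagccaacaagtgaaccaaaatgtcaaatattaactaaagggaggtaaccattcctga
Fgg: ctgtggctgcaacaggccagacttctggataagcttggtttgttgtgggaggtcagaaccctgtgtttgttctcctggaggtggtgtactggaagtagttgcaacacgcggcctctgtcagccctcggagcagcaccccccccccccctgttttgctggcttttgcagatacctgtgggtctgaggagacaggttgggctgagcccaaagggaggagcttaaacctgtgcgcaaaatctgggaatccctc
Masp2: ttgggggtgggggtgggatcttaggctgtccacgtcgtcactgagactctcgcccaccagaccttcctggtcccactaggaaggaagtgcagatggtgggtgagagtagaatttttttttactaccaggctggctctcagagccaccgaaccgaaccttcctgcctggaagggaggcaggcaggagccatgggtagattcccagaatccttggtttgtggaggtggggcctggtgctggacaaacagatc
Klkb1: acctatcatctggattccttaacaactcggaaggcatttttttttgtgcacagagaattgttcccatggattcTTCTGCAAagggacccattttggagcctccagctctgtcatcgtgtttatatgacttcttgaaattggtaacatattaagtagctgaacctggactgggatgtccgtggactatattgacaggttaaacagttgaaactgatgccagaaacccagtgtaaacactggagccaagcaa
Fga, Fgb and Klkb1 hold 1 C/EBP match each, which begins 135, 80 and 177 bases before the start, and Fgg and Masp2 hold none. A promoter was found for 33 of the 42 members. The C/EBP site was in 9 of the 33 windows (27.3%), against 9.6% of the 32851 windows of all genes, and in 0 of 4 risen, 2 of 12 fallen and 7 of 17 uncalled members. TTCNNNGAA, a STAT site, was in 6 of 33 (18.2%), among them Fga, Fgb and Masp2, against 7.0% of all windows, and in 2 of 4 risen (Masp2 and Pros1), 0 of 12 fallen and 4 of 17 uncalled members. Of the other motifs searched, CAAAGTCCA, an HNF4 core, was in 0 of 33 (0.4% of all windows), TGACNNNGC, the core of the antioxidant response element, in 3 of 33 (9.1%, against 10.2%) and the p53 half-site in 4 of 33 (12.1%, against 7.1%). Matches describe letters in these windows and are not shown to be bound. Cebpa, the gene of a C/EBP factor of the liver, fell from 398 ± 44.5 to 144 ± 11.04 CPM (edgeR adjusted p = 1.0e-04). Cebpb and Cebpd, genes of other C/EBP factors, were not called. Their log2 fold changes were 0.51 ± 0.21 and 0.37 ± 0.30 (edgeR adjusted p = 0.088 and 0.35), and Cebpb passed as higher with total library size (0.017). The part of these factors in the members' values was not tested.

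Vitamin K-dependent proteins carry gamma-carboxylated residues that bind calcium and membranes. Of 7 genes 1 rose, 3 fell and 3 were not called. F7, the factor that tissue factor activates, fell furthest, from 209, 219 and 180.1 CPM in healthy to 105, 98.9 and 77.5 CPM in senescent replicates (log2 fold change -1.11 ± 0.15, edgeR adjusted p = 7.2e-04). F2, the gene of prothrombin, had 2392, 2717 and 2528 CPM in healthy and 1696, 1679.5 and 1458 CPM in senescent replicates (log2 fold change -0.66 ± 0.14, edgeR adjusted p = 0.0078), a call lost with total library size (0.058). F9 and F10, genes of the factors that act between these, had log2 fold changes of -0.06 (95% interval -0.39 to 0.27) and -0.39 (-0.75 to -0.04) and were not called. F10 passed in DESeq2 (adjusted p = 0.040) and without healthy replicate 3 (edgeR adjusted p = 0.020). Proz, whose product helps to inhibit factor Xa, was not called (log2 fold change -0.11, 95% interval -0.39 to 0.16).

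The anticoagulant pair of protein C and protein S divided. Proc had 600.3, 687 and 577 CPM in healthy and 404, 383 and 340 CPM in senescent replicates (log2 fold change -0.73 ± 0.13, edgeR adjusted p = 0.0036). Pros1, the gene of its cofactor protein S, had 40.3, 53.1 and 56.0 CPM in healthy and 75.3, 103 and 111 CPM in senescent replicates (log2 fold change 0.96 ± 0.18, edgeR adjusted p = 0.0041). Neither gene's groups overlapped. Per kilobase, Pros1 was 0.0407 to 0.0588 of Proc in healthy and 0.113 to 0.199 of it in senescent libraries, a pair picked after its values were seen. The order of Pros1 within groups was not that of the macrophage, stellate cell, endothelial or platelet markers. F5, which encodes factor V, a target of activated protein C, was not called (log2 fold change 0.27, 95% interval -0.14 to 0.67, edgeR adjusted p = 0.26, 0.025 with total library size).

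The contact system links factor XII, plasma prekallikrein, kininogen and factor XI. Klkb1, the prekallikrein gene (ENSMUSG00000109764; chromosome 8, 45266689 to 45294859), had the largest fall of all members. It went from 134, 142 and 111 CPM in healthy to 50.4, 29.5 and 27.5 CPM in senescent replicates (log2 fold change -1.85 ± 0.24, edgeR adjusted p = 5.8e-04). F12, the gene of its activator, rose from 655, 625 and 512 to 916, 974.7 and 911 CPM (log2 fold change 0.64 ± 0.14, edgeR adjusted p = 0.0078). In both genes every senescent library lay beyond every healthy one. The ratio of F12 to Klkb1 per kilobase was 11.8 to 13.1 in healthy and 48.6 to 88.7 in senescent libraries, a pair picked after its values were seen. Kng1, the source of bradykinin, fell by 0.62 ± 0.17 on the log2 scale (edgeR adjusted p = 0.020). Its call was lost without senescent replicate 1 (0.055), 2 (0.062) or 3 (0.097), without healthy replicate 2 (0.064) and with total library size (0.13), and its paralog Kng2 can share reads. F11 was not called (log2 fold change -0.59 ± 0.23, edgeR adjusted p = 0.071). It passed in DESeq2 (0.035), without healthy replicate 1 (0.013) and with the replicate number as a block (0.031).

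**Figure D4:**
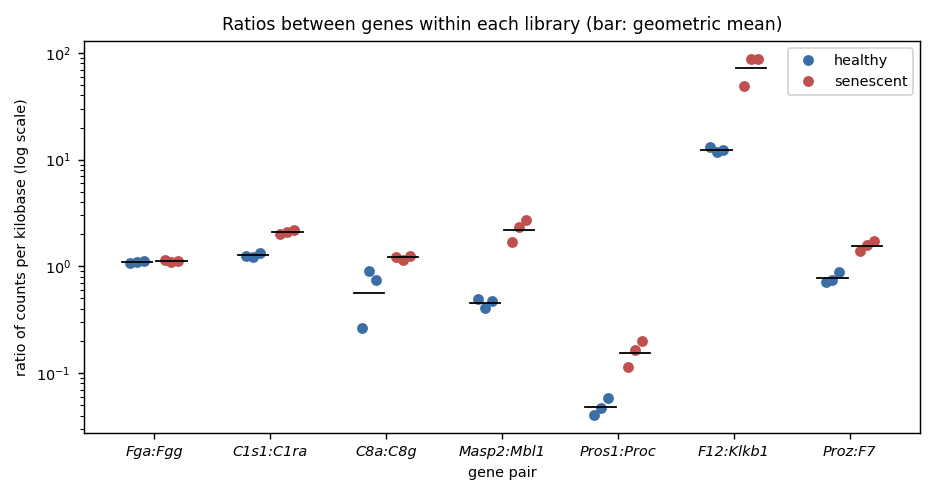
Ratio of counts per kilobase of exon between gene pairs within each library, on a log axis, healthy in blue and senescent in red, 1 point per library with bars at the geometric mean. Fga to Fgg stays between 1.09 and 1.14 in all libraries, while the senescent libraries lie above the healthy ones for each of the other 6 pairs shown. Of these, Masp2 to Mbl1, Pros1 to Proc, F12 to Klkb1 and Proz to F7 were picked after their values were seen, so their separation is no test. Some pairs not shown, among them F11 to Klkb1 and Fga to F13b, overlapped between the groups.

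A last group of 5 genes, of coagulation inhibitors and related plasma proteins (Hrg and Cpb2), had 2 fallen and 3 uncalled genes. Serpind1, which encodes heparin cofactor II, an inhibitor of thrombin, had 674, 708 and 595 CPM in healthy and 398, 396 and 345 CPM in senescent replicates, without overlap (log2 fold change -0.80 ± 0.13, edgeR adjusted p = 0.0022). Serpinc1, the antithrombin gene, fell by 0.40 ± 0.14 on the log2 scale (edgeR adjusted p = 0.043). That call was the least secure, since it was lost in 11 of 15 alternatives, among them each of the 6 fits without a library (0.053 to 0.15) and total library size (0.56). Serpina10, whose product inhibits factor Xa together with protein Z, Hrg, a plasma glycoprotein that binds heparin, and Cpb2, a carboxypeptidase that slows fibrin breakdown, were not called. Their log2 fold changes were -0.06 (95% interval -0.49 to 0.37), -0.26 (-0.68 to 0.17) and -0.32 (-0.65 to 0.02).

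Genes around these cascades were read from lists of other components. Of 22 tested complement components, regulators and receptors outside the 42, 3 rose and 2 fell. The anaphylatoxin receptor gene C5ar1 went from 0.189 ± 0.0702 to 0.942 ± 0.336 CPM (edgeR adjusted p = 0.0055) and Vsig4, a complement receptor of Kupffer cells, from 9.14 ± 3.20 to 20.6 ± 6.67 CPM (0.016). C5ar1 had only 16 counts in the healthy and 99 in the senescent libraries. It passed the expression filter only through its senescent values, so its call carries little weight. Vsig4 is itself among the 16 macrophage markers, of which 3 rose, or 14 with total library size (median log2 fold change 0.97 with TMM). Their summed levels overlapped between the groups, and the part of macrophage content in these values was not tested. Cd59a, the gene of an inhibitor of the terminal complex, fell from 64.4 ± 10.4 to 45.8 ± 7.41 CPM (0.041, and 0.38 with total library size). Of 15 tested genes of clotting, fibrinolysis and thrombin receptors 6 rose and 3 fell. Serpine2, which encodes the thrombin inhibitor protease nexin-1, rose from 1.53 ± 0.682 to 53.7 ± 21.8 CPM (log2 fold change 5.14 ± 0.44, edgeR adjusted p = 7.0e-05). Plaur, the urokinase receptor gene, went from 0.157 ± 0.0328 to 0.770 ± 0.296 CPM (0.0061). It had only 13 counts in the healthy and 81 in the senescent libraries and, like C5ar1, passed the filter only through its senescent values. Plg, the plasminogen gene, fell from 3826 ± 601 to 1976 ± 237 CPM (edgeR adjusted p = 0.0040) and Serpinf2, the gene of its inhibitor antiplasmin, from 1190.3 ± 111 to 698 ± 68.8 CPM (0.0038).

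Of 11 tested genes for the vitamin K cycle, processing and export of clotting factors, 2 rose and 2 fell. Vkorc1, which encodes the vitamin K reductase that warfarin blocks, fell from 58.7 ± 7.11 to 24.1 ± 3.14 CPM (log2 fold change -1.29 ± 0.14, edgeR adjusted p = 2.9e-04). Its paralog Vkorc1l1 rose from 34.3 ± 3.24 to 47.8 ± 3.20 CPM (0.012). The carboxylase gene Ggcx was not called (log2 fold change -0.13 ± 0.14, edgeR adjusted p = 0.47). Prrg2, a transmembrane Gla protein gene, fell from 20.7 ± 1.89 to 14.0 ± 1.36 CPM (0.0089, and 0.13 with total library size). Prrg4, another such gene, had 0 counts in the healthy and 2838 in the senescent libraries. In the IL-6 pathway and acute phase list 2 of 23 genes rose and 4 fell. Serpina3n went from 643 ± 264 to 2879 ± 877 CPM (edgeR adjusted p = 0.0018) and the receptor gene Il6ra from 56.9 ± 14.3 to 94.8 ± 11.1 CPM (0.013). Hamp, the hepcidin gene, fell from 1624 ± 6.34 to 446 ± 134 CPM (4.4e-04) and Crp from 479 ± 125 to 191 ± 43.4 CPM (0.0032). Of 17 liver transcription factor genes 2 rose, Nfe2l2 from 51.1 ± 2.84 to 190.2 ± 20.7 CPM (1.7e-05) and Foxa3 from 39.3 ± 14.0 to 64.0 ± 3.67 CPM (0.036), and 7 fell. With total library size these 5 lists had 10 risen and 1 fallen, 7 and 2, 4 and 1, 5 and 3, and 5 and 1 genes, in the order given.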

How the data were processed

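Read counts per gene were deposited by the authors as 1 table of 6 libraries, raw and not pooled. The submitters' processing notes name cutadapt 1.16, STAR 2.7.1a, featureCounts and GRCm38. No source used here gives the annotation release or strand setting, so opposite-strand overlaps (Masp2, C2, C8g, F5, Masp1, Serpinc1, Serpind1) cannot be separated. Column names were matched to sample labels, and for healthy replicate 2 they differ by 1 letter. Genes passing edgeR's filterByExpr (minimum count 10, minimum total 15) were tested with edgeR 4.0.16 (R 4.3.3; TMM, quasi-likelihood F test, two-sided). SE is the log2 fold change over the square root of F. DESeq2 1.42.0 and limma 3.58.1 served as alternatives, and the pipeline was tested on simulated data. Exonic lengths came from GENCODE M21 and promoters from RefSeq. Members and lists were chosen with earlier results of these data known. The 15 members with the smallest p, the fibrinogen chains and the 5 most abundant were given library by library, with the others summarised or, where singled out, chosen after their values were seen. From each context list, up to 2 risen and 2 fallen genes with the smallest p were named, and Cebpb and Cebpd were added beside Cebpa. Some results of these lists are not reported here. Total counts of 28799392 to 33267299 set the counting precision, and no table column lacked a sample.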

Additional observations from a re-analysis of the deposited data

How the results depend on the processing

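Each member's result was recomputed under 15 alternatives, which over the 42 members left 567 values on the same side, 35 weaker, 13 newly past the threshold and 15 of opposite sign. Total library size moved the counts to 9 higher and 11 lower and the median log2 fold change to -0.082, and turned the sign of C3 (0.072), Cfb (0.0016), F9 (0.25), Proz (0.19), Serpina10 (0.25) and Hrg (0.052), none of them called in the main test. Leaving out 1 library at a time gave 4 higher in every case, 12 to 20 lower and a median of -0.47 to -0.26. Over those fits the log2 fold change ranged from -0.14 to 0.55 for C8a, -0.045 to 0.45 for C8b, -0.070 to 0.25 for C4bp, -0.19 to 0.029 for F9 and -0.23 to 0.094 for Serpina10, and the log2 ratio of C8a to C8b from -0.13 to 0.35. The cause of these changes was not tested. With the replicate number as a block 4 members were higher and 17 lower; same-numbered libraries had correlations of 0.25, -0.20 and 0.02, so the numbers were not treated as pairs.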

Other observations

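Some members that lie near each other on a chromosome had unequal values and others near-equal ones. On chromosome 8, F7, F10 and Proz follow each other on 1 strand with gaps of 1.5 and 4.2 kb, and their log2 fold changes were -1.11, -0.39 and -0.11. Per kilobase of exon, Proz was 0.720 to 0.889 of F7 in healthy and 1.41 to 1.72 of it in senescent libraries. F11 and Klkb1, 4.7 kb apart on chromosome 8, had log2 fold changes of -0.59 and -1.85, and their ratio overlapped between the groups. C2 lies 85 bases from Cfb on chromosome 17, with log2 fold changes of -0.87 and -0.31. The neighbouring Fga, Fgb and Fgg had log2 fold changes of -0.47, -0.38 and -0.48, and C8a and C8b of 0.19 and 0.11. C4b and Cfb, 112.5 kb apart, had -0.36 and -0.31. At like distances, C2 and C4b (118.7 kb) had -0.87 and -0.36, and Kng1 and Hrg (96.2 kb) had -0.62 and -0.26. These pairs were picked after their values were seen, and their differences were not tested.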
